A study of Mus musculus with 21 samples.

Results

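The cytochrome P450 genes analysed here are the genes whose mouse symbol is Cyp followed by a family number, a subfamily letter or letters and a member number, with the sterol demethylase gene Cyp51 left out. Of the 94 gene symbols in the GENCODE annotation of mm10 that have this form, 32 were among the 9657 genes of the deposited tables. They make up the whole set described below, 7 families and 16 subfamilies. The rule used names only and no measured value. Symbols with a letter after the member number stand outside it, such as Cyp4a12a with a mean of 33.0 CPM, and so does Cyp51 with 102 CPM.

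Cytochromes P450 are haem proteins that insert an oxygen atom into their substrates, most of them in the endoplasmic reticulum, where Por (cytochrome P450 reductase) hands them electrons. In the liver the families Cyp1, Cyp2 and Cyp3 oxidise drugs and other foreign compounds, the Cyp4 family oxidises fatty acids and related lipids, and Cyp27 and Cyp39 enzymes act on sterols on the way to bile acids. Their transcription is set by nuclear receptors and other factors, among them Nr1i2 (PXR), Nr1i3 (CAR) and Ahr, and hepatocytes taken into culture are known to lose much of their P450 expression.

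The libraries came from wild-type primary mouse hepatocytes, liver cells isolated and kept in culture, with RNA taken on Day 1. Controls were given PBS, and the other cells 1 of 3 agents that direct RNA interference against Ttr, the gene of the secreted carrier protein transthyretin, at 0.2 µM or at 2 µM. The agents carry the names TTR-1236, TTR-1186 and Reference 4, and each of the 7 groups held 3 libraries, 21 in all. The labels give no strain, sex or age and do not say whether replicates are separate animals or cultures. The p-values therefore rest on a spread between samples that may be technical only. The labels also do not say what the PBS cells received apart from PBS. None of the labelled groups received an RNA that does not target Ttr, so a difference from PBS cannot be told apart from the response to any such RNA.

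Expression was read with QuantSeq, which sequences the 3′ ends of polyadenylated RNA, and levels are in CPM, reads of a gene scaled to a total of 1000000 over the listed genes of a library. Because about 1 fragment arises per transcript, these levels are not scaled by length and were compared between genes as they stand. The libraries held 14158740 to 37410773 reads. Ttr, the targeted gene, stood at 2258 ± 84.7 CPM (SD, n = 3) in PBS and between 3.19 and 27.1 CPM in the 18 treated libraries. Of 7 hepatocyte markers 6 were among the listed genes, with a summed level of 12312 to 20310 CPM per library. Of the markers of other liver cells 2 of 9 for macrophages were listed (Cd68 and Csf1r, 77.2 to 184 CPM in sum), 1 of 7 for endothelial cells (Stab2, 0.179 to 10.6 CPM), 1 of 8 for stellate cells (Dcn, 5.67 to 25.3 CPM), 2 of 4 for bile duct cells (Krt19 and Sox9, 24.5 to 48.2 CPM) and 0 of 4 for lymphocytes. The share of reads in the mitochondrial ribosomal RNA genes mt-Rnr1 and mt-Rnr2 differed between doses. It was 1.47% to 3.73% (median 2.13%) in the 9 libraries at 0.2 µM, 0.278% to 2.21% (median 0.622%) in the 9 at 2 µM, and 3.26%, 2.70% and 0.797% in PBS replicates 1, 2 and 3. Its part in the results below was not tested beyond the fits that include it.

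The promoters of 4 members are printed because these genes, Cyp3a11, Cyp2f2, Cyp27a1 and Cyp2e1, are the only members that passed the test between the doses. Each sequence is the stretch of 250 bases before the start of transcription in RefSeq (build GRCm38.p6), read 5′ to 3′ on the gene's strand. The intervals are chr5:145879855-145880104 on the minus strand for Cyp3a11, and on the plus strand chr7:27119705-27119954 for Cyp2f2, chr1:74713285-74713534 for Cyp27a1 and chr7:140763569-140763818 for Cyp2e1. Capitals mark every match, on either strand, to AGGTCA or AGTTCA (elements read by nuclear receptors), CAAAGTCCA (an element of the HNF4 type) or TATAAA (the letters of the TATA box).
Cyp3a11: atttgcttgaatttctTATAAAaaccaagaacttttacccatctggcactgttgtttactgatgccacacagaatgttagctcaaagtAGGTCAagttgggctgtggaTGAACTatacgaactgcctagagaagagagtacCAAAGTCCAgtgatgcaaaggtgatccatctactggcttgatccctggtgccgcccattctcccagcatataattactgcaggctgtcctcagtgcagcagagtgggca
Cyp2f2: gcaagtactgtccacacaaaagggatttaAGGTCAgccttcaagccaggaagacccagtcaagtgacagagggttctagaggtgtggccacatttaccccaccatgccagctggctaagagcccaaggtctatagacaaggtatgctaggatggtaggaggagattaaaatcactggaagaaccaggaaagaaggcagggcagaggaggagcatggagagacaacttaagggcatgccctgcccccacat
Cyp27a1: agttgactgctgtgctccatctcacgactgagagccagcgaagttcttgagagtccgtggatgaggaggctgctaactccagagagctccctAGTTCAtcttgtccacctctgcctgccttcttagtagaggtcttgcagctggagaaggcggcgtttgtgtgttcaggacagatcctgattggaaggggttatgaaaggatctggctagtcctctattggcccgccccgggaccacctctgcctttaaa
Cyp2e1: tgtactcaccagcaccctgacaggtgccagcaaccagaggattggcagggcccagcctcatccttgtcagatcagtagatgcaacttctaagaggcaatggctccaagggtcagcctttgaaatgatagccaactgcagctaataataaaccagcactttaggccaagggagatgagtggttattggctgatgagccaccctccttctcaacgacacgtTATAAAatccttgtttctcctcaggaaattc

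Cyp3a11 holds 4 of the matches, AGGTCA at 162 to 157 bases before its start, AGTTCA on the other strand at 142 to 137, CAAAGTCCA at 109 to 101 and TATAAA at 234 to 229. The GENCODE genes of Cyp3a11, Cyp2f2 and Cyp2e1 begin upstream of the RefSeq start used here, within the printed window, and that of Cyp27a1 begins downstream of it. Cyp2f2 has AGGTCA at 221 to 216 bases before its start, Cyp27a1 has AGTTCA at 158 to 153 and Cyp2e1 has TATAAA at 31 to 26. No element is common to all 4 windows. A RefSeq promoter was matched for 28 of the 32 members, and 32851 promoters of the same length gave the background, several per gene for many genes. AGGTCA was found in 8 of 28 member promoters (28.57%, against 14.02% of all), AGTTCA in 5 (17.86%, against 11.84%), CAAAGTCCA in 3 (10.71%, against 0.3835%) and TATAAA in 14 (50%, against 12.37%). TATAAA was counted on either strand and anywhere in the window, as in Cyp3a11, so its count is not one of TATA boxes. A longer element of the HNF1 type was matched in 0 of 28 (against 0.009132% of all). The promoters of neighbouring copies resemble each other, so these members are not separate observations, and a match in letters is a description only.

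Together the 32 genes took 0.201% of the reads, with a summed level of 1738 to 2315 CPM per library (median 2001). The Cyp2 family held 21 of the members and 68.1% of the summed P450 level, Cyp3 held 2 members and 19.1%, and Cyp4 held 5 members and 7.25%. The remaining 4 families had 1 member each: Cyp1 with 2.97% of the sum, Cyp27 with 1.69%, Cyp39 with 0.453% and Cyp20 with 0.444%. By subfamily, Cyp2d led with 628 CPM over 5 members (31.2% of the sum), before Cyp3a with 384 CPM (19.1%), Cyp2b with 348 CPM (17.3%) and Cyp2c with 208 CPM (10.3%). The set was uneven, since the 5 highest genes carried 57.9% of the sum and the 10 highest 79.2%. Mean levels ran from 3.75 to 312 CPM. Of the members 16 were above and 16 below the median gene of the tables (23.9 CPM), and the highest ranked 540 among all genes. The lowest mean of any listed gene was 1.22 CPM, and the P450 genes without a row are not analysed here.

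**Figure D1:**
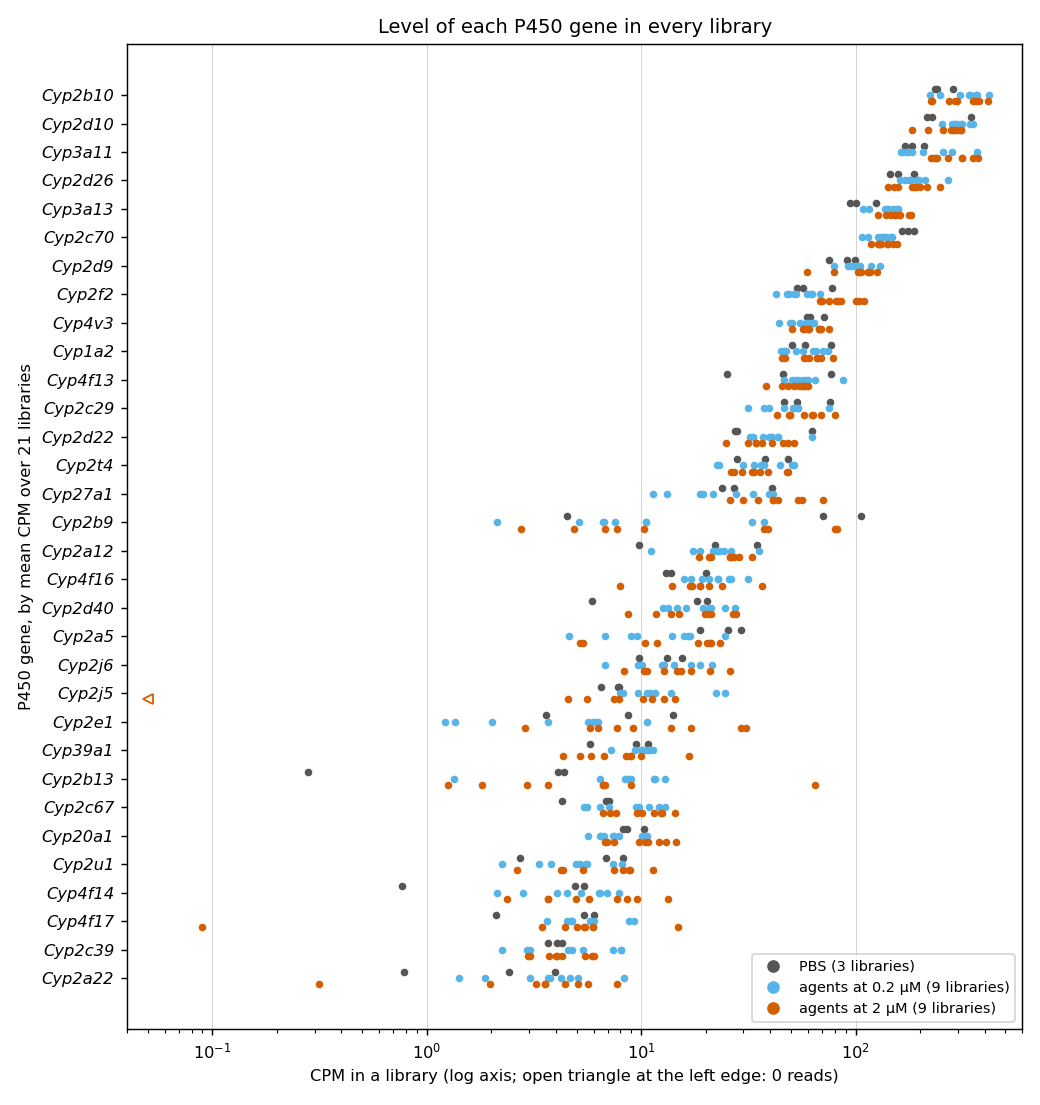
Level in CPM (log axis) of each of the 32 P450 genes in each of the 21 libraries, ordered by mean, with PBS in grey, agents at 0.2 µM in blue and agents at 2 µM in orange; an open triangle marks 0 reads. Points of the upper rows lie close together. Cyp2b9 and Cyp2b13 are spread over more than a factor of 10, and so are Cyp2e1, Cyp4f14, Cyp4f17 and Cyp2a22.

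Cyp2b10, a phenobarbital-inducible gene known as a target of Nr1i3, had the highest mean level, 312 CPM, that rank of 540 of the 9657 genes. It was followed by Cyp2d10, a drug-oxidising Cyp2d enzyme, with 283 CPM and by Cyp3a11, the main mouse counterpart of human CYP3A4, with 242 CPM. Cyp2d26 (187 CPM), Cyp3a13 (142 CPM), Cyp2c70 (139.7 CPM) and Cyp2d9 (101 CPM) also had means over 100 CPM. Neighbours in this order did not all differ beyond their spread, since Cyp2b10 was the highest P450 gene in most libraries, and Cyp2d10 or Cyp3a11 in the others. Cyp2f2, which oxidises naphthalene, stood at 69.5 CPM, Cyp4v3, a fatty acid hydroxylase, at 60.1 CPM and Cyp1a2, the caffeine-oxidising target of Ahr, at 59.8 CPM. Below these 10 genes, the leading genes of the other subfamilies were Cyp4f13 of the lipid-oxidising Cyp4f genes (54.6 CPM), Cyp2t4 (36.4 CPM), the mitochondrial sterol hydroxylase Cyp27a1 (34.0 CPM) and Cyp2a12 (23.6 CPM). The arachidonic acid epoxygenase Cyp2j6 was at 14.2 CPM. Cyp2e1, which oxidises ethanol and acetaminophen, was at 9.15 CPM, the oxysterol hydroxylase Cyp39a1 at 9.13 CPM, Cyp20a1 at 8.94 CPM and the fatty acid hydroxylase Cyp2u1 at 5.96 CPM. In all 22 members had a mean of at least 10 CPM and 10 a lower one.

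Many members lie side by side in the genome. In mm10 a stretch of chromosome 7 from 25897620 to 27158668 held 8 of them (Cyp2b10, Cyp2b13, Cyp2b9, Cyp2a5, Cyp2a22, Cyp2a12, Cyp2f2 and Cyp2t4). The 5 Cyp2d genes lay on chromosome 15 from 82370527 to 82794294, the 4 Cyp4f genes on chromosome 17 from 32506050 to 32947402 and the 4 Cyp2c genes on chromosome 19 from 39269405 to 40187333. Of the members, 12 had another annotated transcript that matched at least 80% of their last 400 bases, where QuantSeq reads fall, and 4 of these matched at least 90%. Reads of such genes may be assigned to a copy, so among the genes named here the levels of Cyp2d10, Cyp2d26, Cyp2d9, the 3 Cyp2b genes and Cyp2a12 are uncertain to that degree. Members below 80% can still share shorter, closer stretches with another gene. Among them are Cyp3a11 (219 aligned bases, 94.06% identical to Cyp3a41a), Cyp2e1 (216 bases, 89.81% to Rrm2b) and Cyp2a5 (136 bases, 95.59% to Cyp2a4). Reads that fall within these stretches are open to the same doubt. Cyp2t4 overlaps Egln2 on the opposite strand at its 3′ end, and the strand setting of the counting is not given in the sources used here. Cyp4v3 overlaps Gm45753 on the same strand at its 3′ end, where no strand setting separates them. The reads of either pair may therefore not be told apart.

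The summed P450 level was 1855 ± 100.2 CPM (SD, n = 3) in PBS. At 0.2 µM it was 2153 ± 141 CPM with TTR-1236, 1895 ± 139 CPM with TTR-1186 and 1907 ± 126 CPM with Reference 4. At 2 µM the sums were 2198 ± 117, 1982 ± 228 and 2114 ± 31.6 CPM in the same order. All 6 treated means were above that of PBS, but some libraries fell within or below the PBS range of 1747 to 1945 CPM. At 0.2 µM these were replicate 1 of TTR-1186 (1738 CPM) and replicate 1 of Reference 4 (1762 CPM). At 2 µM they were replicates 2 and 3 of TTR-1186 (1839 and 1861 CPM). The libraries of TTR-1236, at either dose, and of Reference 4 at 2 µM were all above that range. Over all agents the sums at 0.2 µM (1738 to 2315 CPM, median 1987) and at 2 µM (1839 to 2278 CPM, median 2110) overlapped. In a bulk sample, fewer hepatocytes and less P450 RNA per hepatocyte cannot be told apart.

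**Figure D2:**
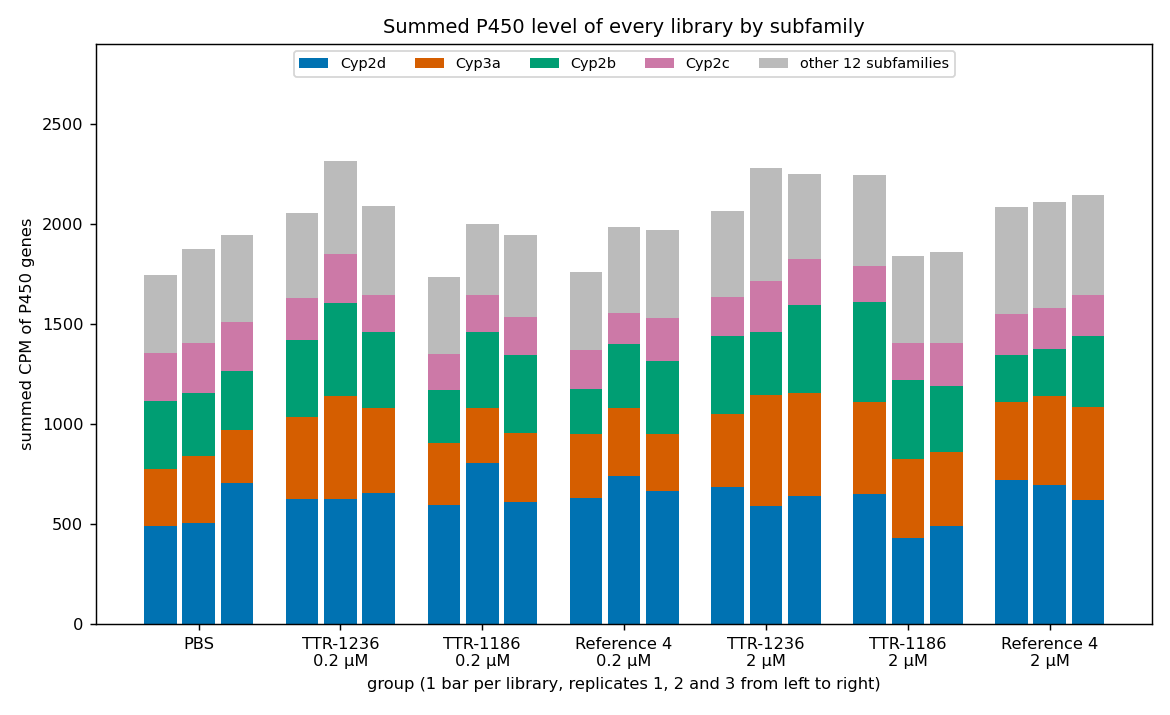
Summed CPM of the 32 P450 genes in each library, 1 bar per library and stacked by subfamily (Cyp2d, Cyp3a, Cyp2b, Cyp2c and the other 12), with replicates 1, 2 and 3 from left to right in each group. The tallest bar is 2315 CPM (TTR-1236 at 0.2 µM, replicate 2) and the shortest 1738 CPM (TTR-1186 at 0.2 µM, replicate 1).

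The first question is which P450 genes differed from PBS under each agent and dose. Genes called risen or fallen had a limma p under 0.05 after Benjamini-Hochberg adjustment over all 9657 genes, and log2 fold changes are on the log2(CPM + 1) scale with their standard error. All 6 comparisons use the same 3 PBS libraries. Only the 2 Cyp3a genes passed in any of them, both of them upwards.

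Cyp3a11 (ENSMUSG00000056035, chromosome 5, 145854426 to 145879964, minus strand) was at 183, 209.6 and 169 CPM in PBS replicates 1, 2 and 3. The libraries of TTR-1236 at 2 µM held 226, 374 and 353 CPM, and those at 0.2 µM 257, 367 and 283 CPM. All 6 TTR-1236 libraries were above all 3 PBS libraries. It rose by 0.73 ± 0.18 at 2 µM (limma adjusted p = 0.0227), a ratio of mean CPM of 1.70. At 0.2 µM the difference of 0.68 did not pass (adjusted p = 0.386), although its size was close to that at 2 µM. With TTR-1186 the gene was at 175, 163 and 206 CPM at 0.2 µM and at 314, 232 and 240.4 CPM at 2 µM. With Reference 4 it was at 165, 183 and 171 CPM at 0.2 µM and at 237, 270.5 and 313 CPM at 2 µM. So the low dose of these 2 agents overlapped PBS and the high dose did not, but neither high-dose difference (0.48, adjusted p = 0.395, and 0.54, adjusted p = 0.0976) passed.

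Cyp3a13 (ENSMUSG00000029727, chromosome 5, 137892932 to 137921619, minus strand), a second Cyp3a enzyme encoded apart from Cyp3a11 on the same chromosome, was at 101, 125 and 94.0 CPM in PBS. The libraries of TTR-1236 at 2 µM held 139, 182 and 162 CPM, and those of Reference 4 at 2 µM 153, 177 and 153 CPM. Neither group overlapped PBS. The rises were 0.59 ± 0.16 (adjusted p = 0.0323) and 0.60 ± 0.16 (adjusted p = 0.0499), each a ratio of 1.51. In the other 4 treated groups the mean was 128 to 149 CPM against 107 CPM in PBS, with 108 CPM in the lowest library, and no difference passed.

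These rises are sensitive to single libraries. For TTR-1236 at 2 µM against PBS, Cyp3a11 no longer passed without TTR-1236 replicate 2 or 3 or without PBS replicate 1 or 2, and Cyp3a13 no longer passed without any 1 of these libraries or without PBS replicate 3. The rise of Cyp3a13 under Reference 4 passed in none of the 6 fits that leave out a library. With the share of mitochondrial ribosomal RNA as a covariate the 3 fold changes were 0.75, 0.72 and 0.68, and none passed (adjusted p = 0.385, 0.364 and 0.161).

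**Figure D3:**
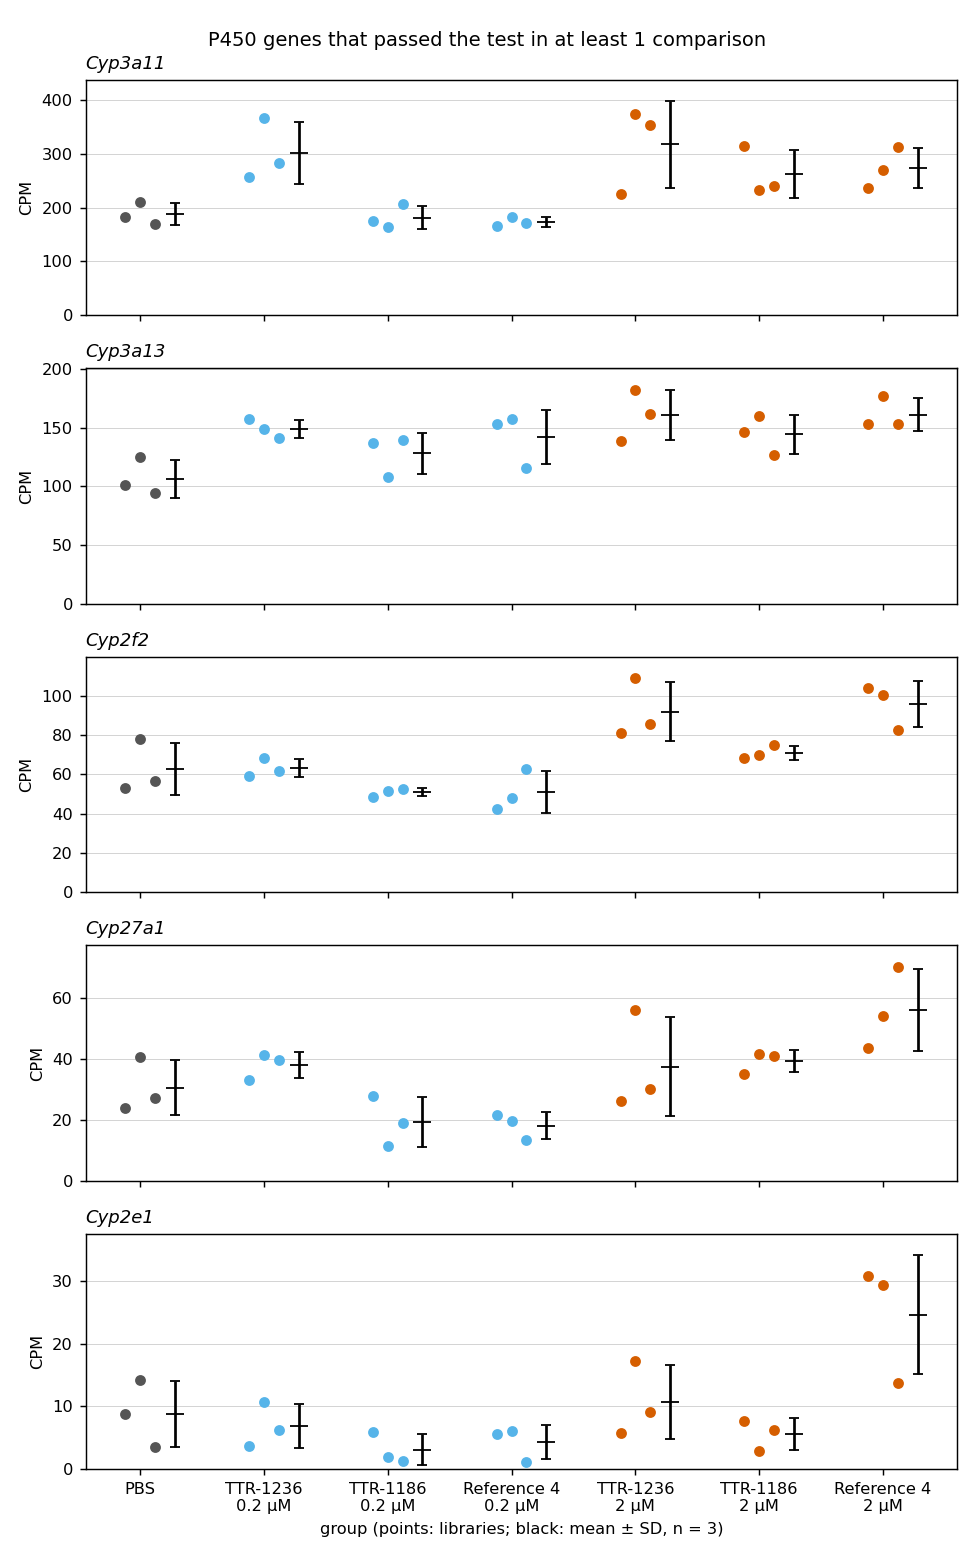
CPM of the 5 P450 genes that passed the test in at least 1 comparison, by group; coloured points are libraries (grey PBS, blue 0.2 µM, orange 2 µM) and black marks give mean ± SD (n = 3). For Cyp2f2 all orange points lie above all blue points, and for Cyp2e1 the points of Reference 4 at 2 µM reach 30.8 CPM.

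The count of rises is to be read against all genes. With TTR-1236 at 2 µM, 2 of 32 members passed (6.25%), and 6.33% of all genes did (1.44% upwards). With Reference 4 at 2 µM it was 1 of 32 (3.125%), beside 2.25% of all genes (0.59% upwards). No member passed with TTR-1236 at 0.2 µM (0.0207% of all genes), TTR-1186 at 0.2 µM (0.0311%), Reference 4 at 0.2 µM (0.166%) or TTR-1186 at 2 µM (0.0518%). In these 4 comparisons 5, 5, 7 and 4 members (15.6%, 15.6%, 21.9% and 12.5%) had an unadjusted p under 0.05 by limma, beside 6.89%, 9.61%, 14.8% and 9.22% of all genes. On the recovered reads edgeR and DESeq2 called 0 members in each. The count for TTR-1236 at 2 µM was 4 without PBS replicate 3 or without its own replicate 1, and 4 with edgeR or DESeq2, which added Cyp2b13 and Cyp2f2 as higher. Without PBS replicate 3 and TTR-1186 2 µM replicate 2, each the lowest of its own group in mitochondrial ribosomal RNA (0.797% and 0.622%), it was 5, with Cyp2b13, Cyp3a11 and Cyp3a13 higher and Cyp2a5 and Cyp2b9 lower. The 3 libraries of TTR-1236 at 2 µM that stayed in had lower shares still, 0.487%, 0.471% and 0.278%. Without PBS replicate 1, PBS replicate 2 or TTR-1236 replicate 3 it was 0, without TTR-1236 replicate 2 it was 1 (Cyp2a5, lower), and over all genes the count of 611 ranged from 46 to 1588 when 1 library was left out. For edgeR, DESeq2 and the fit without PBS replicate 3 and TTR-1186 2 µM replicate 2, no share of all genes is set beside the members. The median log2 fold change of the members was 0.24 with TTR-1236 at 2 µM and 0.29 with Reference 4 at 2 µM, beside -0.07 and -0.03 over all genes. In those comparisons 24 and 23 of the 32 members (75% and 71.9%) had a higher mean log2 level than in PBS. The shares of all genes were 44.5% and 47.3%. With TTR-1236, TTR-1186 and Reference 4 at 0.2 µM 22, 17 and 19 members were higher, beside 49.3%, 44.7% and 44.6% of all genes. With TTR-1186 at 2 µM 17 were (48.5% of all genes). These counts share the PBS libraries, and neighbouring copies are not separate observations.

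The Cyp2b subfamily held the widest contrasts between members. Cyp2b10 was at 234, 241 and 283 CPM in PBS. Its group means were 375 ± 41.6, 326 ± 68.2 and 291 ± 62.4 CPM at 0.2 µM, and 346 ± 41.9, 352 ± 60.6 and 241 ± 27.5 CPM at 2 µM, for TTR-1236, TTR-1186 and Reference 4. The TTR-1236 groups and TTR-1186 at 2 µM did not overlap PBS, but their differences of 0.56, 0.45 and 0.47 did not pass (adjusted p = 0.512, 0.131 and 0.395). Over the 21 libraries its highest value was 1.90 times its lowest.

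Cyp2b9 and Cyp2b13 were described after their values were seen. Both are known in mouse liver as genes with higher expression in females. Cyp2b9 was at 106, 70.1 and 4.52 CPM in PBS replicates 1, 2 and 3, from 1522, 1340 and 119 reads, so the spread is beyond counting error. The 2 µM libraries of Reference 4 held 4.84, 2.76 and 79.8 CPM, and those of TTR-1186 81.6, 37.6 and 38.9 CPM. High libraries thus occurred beside low ones within PBS and within Reference 4 at 2 µM. With TTR-1236 it was at 37.5, 32.9 and 6.66 CPM at 0.2 µM and at 6.82, 7.72 and 10.3 CPM at 2 µM. The 6 libraries of TTR-1186 and Reference 4 at 0.2 µM lay between 2.12 and 10.6 CPM. Its highest library was 50.1 times its lowest, and its SD within groups was 1.43 on the log2 scale, the 8th largest of 9657 genes (median 0.35).

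Cyp2b13 was at 6.65, 8.96 and 64.5 CPM with TTR-1236 at 2 µM, the last from 1378 reads, and at 0.279, 4.08 and 4.37 CPM in PBS. The high library is a different one from those high in Cyp2b9. Outside it the gene reached at most 12.9 CPM. Its SD within groups was 1.03 (rank 83), and its difference of 2.39 from PBS at that dose did not pass (adjusted p = 0.0545). Neither gene passed in any comparison by limma over all libraries, and for neither could a difference between groups be separated from that between libraries of 1 group. The Y-linked genes Ddx3y (15.6 to 49.2 CPM) and Eif2s3y (7.78 to 19.4 CPM) had reads in every library, and Xist is not among the genes analysed here.

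The 2 genes are near copies also in their promoters, which are printed to show how little these differ. The windows, of 250 bases before the RefSeq start on the plus strand of GRCm38.p6, are chr7:26173159-26173408 for Cyp2b9 and chr7:26061245-26061494 for Cyp2b13. Capitals mark the positions at which they differ.
Cyp2b9: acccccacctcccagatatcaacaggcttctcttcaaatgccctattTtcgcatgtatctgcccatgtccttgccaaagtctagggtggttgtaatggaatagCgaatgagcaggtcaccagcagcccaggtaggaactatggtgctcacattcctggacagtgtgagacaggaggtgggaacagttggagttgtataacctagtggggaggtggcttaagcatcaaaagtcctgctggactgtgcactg
Cyp2b13: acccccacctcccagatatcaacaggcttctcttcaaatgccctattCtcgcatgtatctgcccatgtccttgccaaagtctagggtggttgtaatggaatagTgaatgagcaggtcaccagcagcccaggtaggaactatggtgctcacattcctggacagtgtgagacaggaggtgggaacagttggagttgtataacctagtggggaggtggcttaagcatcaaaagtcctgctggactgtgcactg

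They are identical at 248 of 250 positions (99.2%). With positions counted from 1 at the 5′ end and the base of Cyp2b9 first, the differences are T48C and C104T. The window of Cyp2b10 matched each of them at 186 of 262 aligned columns (71.0%). Of the last 400 transcribed bases of Cyp2b10, 84.5% were identical in Cyp2b9 (81.25% of the aligned columns). For Cyp2b13 against Cyp2b9 the share was 82.25% (76.87% of the aligned columns). Reads of 1 of these genes may be assigned to another, which was not tested. The library with 64.5 CPM of Cyp2b13 held 10.3 CPM of Cyp2b9, and PBS replicate 1, with 106 CPM of Cyp2b9, held 0.279 CPM of Cyp2b13.

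**Figure D4:**
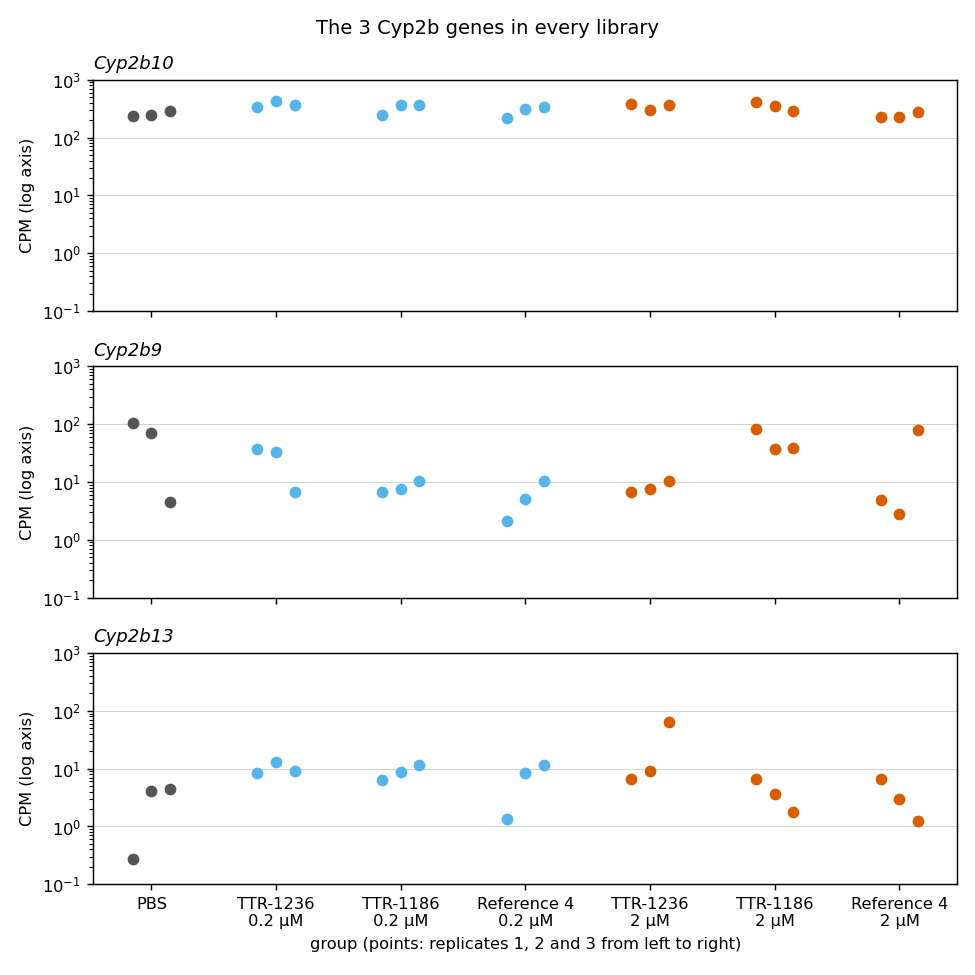
CPM (log axis) of Cyp2b10, Cyp2b9 and Cyp2b13 in each library, with replicates 1, 2 and 3 from left to right in each group. Cyp2b10 stays between 222 and 420.3 CPM, while Cyp2b9 ranges from 2.12 to 106 CPM and Cyp2b13 from 0.279 to 64.5 CPM.

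Cyp2c70, the mouse enzyme that makes muricholic acids from bile acids, had the steadiest pattern among the abundant members. It was at 176, 164 and 188 CPM in PBS and between 107.5 and 156 CPM in all 18 treated libraries, so no treated library reached PBS. Of all genes 0.362% were lower in every treated library than in every PBS library. The group means were 0.706 to 0.846 of that of PBS. The differences of -0.24 to -0.50 did not pass in any of the 6 comparisons (adjusted p = 0.101 to 0.669). Its SD within groups was 0.11, rank 9614 of 9657 from the largest. Cyp2a5, which oxidises coumarin and was picked after its values were seen, also had lower group means than PBS in all 6 groups (8.45 to 19.3 CPM against 24.5 CPM), and none of these differences passed by limma over all libraries.

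The second question is how the P450 genes differed between 2 µM and 0.2 µM. With Reference 4, 4 of 32 members rose (12.5%, beside 12.8% of all genes called in either direction and 6.78% called higher) and none fell: Cyp3a11, Cyp2f2, Cyp27a1 and Cyp2e1. They belong to 4 different subfamilies. The same 4 genes rose where the 9 libraries at 2 µM of all agents were set against the 9 at 0.2 µM (12.5%, beside 18.9% of all genes, 8.8% called higher). That comparison includes the Reference 4 libraries, so it is not separate evidence. No member passed between the doses of TTR-1236 (0.135% of all genes) or TTR-1186 (0% of all genes), and edgeR and DESeq2 called 0 in both. An unadjusted p under 0.05 was found for 2 members with TTR-1236 (6.25%, beside 11.5% of all genes) and for 6 with TTR-1186 (18.75%, beside 14.7%).

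Cyp27a1 (ENSMUSG00000026170, chromosome 1, 74713574 to 74737892, plus strand), which starts the alternative pathway from cholesterol to bile acids in mitochondria, was at 21.5, 19.5 and 13.2 CPM with Reference 4 at 0.2 µM and at 43.6, 54.1 and 70.1 CPM at 2 µM. The doses did not overlap, and the gene rose by 1.58 ± 0.30 (adjusted p = 0.00305), a ratio of 3.09. With TTR-1186 it was at 27.7, 11.4 and 18.8 CPM at 0.2 µM and at 35.0, 41.4 and 41.0 CPM at 2 µM, again without overlap, but the difference of 1.06 did not pass (adjusted p = 0.155). With TTR-1236 it was at 33.1, 41.2 and 39.5 CPM at 0.2 µM and at 26.1, 56.1 and 30.0 CPM at 2 µM, and the doses overlapped. PBS libraries, at 23.8, 40.7 and 27.1 CPM, lay above the low dose of Reference 4 and below its high dose. Over all agents the rise was 0.85 ± 0.17 (adjusted p = 0.00245), a ratio of 1.76.

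Cyp2f2 (ENSMUSG00000052974, chromosome 7, 27119909 to 27133660, plus strand) was at 42.6, 47.9 and 62.9 CPM with Reference 4 at 0.2 µM and at 104, 100.5 and 82.5 CPM at 2 µM. With TTR-1236 it was at 59.3, 68.2 and 62.0 CPM at 0.2 µM and at 81.3, 109 and 85.9 CPM at 2 µM. With TTR-1186 it was at 48.7, 51.4 and 52.8 CPM at 0.2 µM and at 68.2, 70.1 and 74.8 CPM at 2 µM. Every library at 2 µM, of any agent, was above every library at 0.2 µM, though the lowest of the former and the highest of the latter were both at 68.2 CPM when rounded. Of all genes 0.0621% were higher in all 9 libraries at 2 µM. The rise was 0.90 ± 0.18 with Reference 4 (adjusted p = 0.00415, a ratio of 1.87) and 0.63 ± 0.10 over all agents (adjusted p = 0.000564, a ratio of 1.57). PBS, at 53.3, 77.9 and 56.8 CPM, overlapped both doses, and the gene did not pass against PBS in any group by limma on the CPM as deposited. It was called higher at 2 µM of TTR-1236 and of Reference 4 by edgeR, by DESeq2 and by limma on CPM rescaled with TMM factors.

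Cyp2e1 (ENSMUSG00000025479, chromosome 7, 140763739 to 140774987, plus strand) was at 5.65, 6.08 and 1.21 CPM with Reference 4 at 0.2 µM and at 30.8, 29.3 and 13.8 CPM at 2 µM. The doses did not overlap, and the rise was 2.36 ± 0.55 (adjusted p = 0.00869), a ratio of 5.71. With TTR-1236 the gene was at 3.66, 10.6 and 6.31 CPM at 0.2 µM and at 5.75, 17.2 and 9.13 CPM at 2 µM. With TTR-1186 it was at 5.93, 2.02 and 1.35 CPM at 0.2 µM and at 7.70, 2.87 and 6.30 CPM at 2 µM. The doses of these 2 agents overlapped. PBS libraries were at 8.73, 14.1 and 3.61 CPM. Over all agents the rise was 1.23 ± 0.32 (adjusted p = 0.00989), a ratio of 2.86, with dose differences of 2.36, 0.77 and 0.55 for Reference 4, TTR-1186 and TTR-1236.

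Cyp3a11, whose values are given above, rose by 0.65 ± 0.18 between the doses of Reference 4 (adjusted p = 0.0232, a ratio of 1.58) and by 0.41 ± 0.11 over all agents (adjusted p = 0.00953, a ratio of 1.30). With TTR-1236, where the low dose was already at 302 ± 57.6 CPM, its dose difference was 0.05. Over all agents the doses overlapped. The median log2 fold change of the 32 members was 0.20 between the doses of Reference 4 and 0.06 over all agents, beside 0.03 and -0.01 for all genes. Members went either way between the doses of Reference 4, with 19 higher and 13 lower, from -0.68 to 2.36, and a median size of 0.39 in either direction.

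Leaving out any 1 of the libraries compared left the 9 against 9 calls of these 4 genes and the Reference 4 calls of Cyp2f2, Cyp27a1 and Cyp2e1 in place. The Reference 4 call of Cyp3a11 was lost in 5 of 6 such fits (all but the one without replicate 1 at 2 µM), with adjusted p of 0.0512 to 0.136. It was also lost with the share of mitochondrial ribosomal RNA as a covariate (0.66, adjusted p = 0.114), where Cyp2f2 (0.98), Cyp27a1 (1.75) and Cyp2e1 (3.58) still passed for this agent. With the share of mitochondrial ribosomal RNA as a covariate the 9 against 9 fold changes of Cyp3a11 (0.42), Cyp2f2 (0.70) and Cyp27a1 (0.99) were no smaller but did not pass (adjusted p = 0.210, 0.0790 and 0.107), and that of Cyp2e1 was 2.25 (adjusted p = 0.0275). In the same fit the number of genes called fell from 1821 to 13. The summed markers of other cells at 2 µM and 0.2 µM were 128 and 109 CPM on average for macrophages, 5.43 and 5.95 for endothelial cells, 14.7 and 11.7 for stellate cells and 42.5 and 35.5 for bile duct cells. With Reference 4 alone the 6 hepatocyte markers summed to 13482 to 16719 CPM at 0.2 µM and to 17691 to 20310 CPM at 2 µM, and the bile duct markers to 24.5 to 43.2 and to 44.5 to 48.2 CPM, both without overlap. Its macrophage, endothelial and stellate cell markers overlapped between the doses. The hepatocyte markers went the other way with TTR-1186, also without overlap. There they summed to 15621.7 to 18574.5 CPM at 0.2 µM and to 12312.2 to 15377.5 CPM at 2 µM. With TTR-1236 the doses overlapped (15524 to 17673.3 and 15097.5 to 17984.8 CPM). Over all agents the hepatocyte sum averaged 16147.4 CPM at 0.2 µM and 16539.8 CPM at 2 µM. The part of hepatocytes and of these other cells in the dose differences was not tested.

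**Figure D5:**
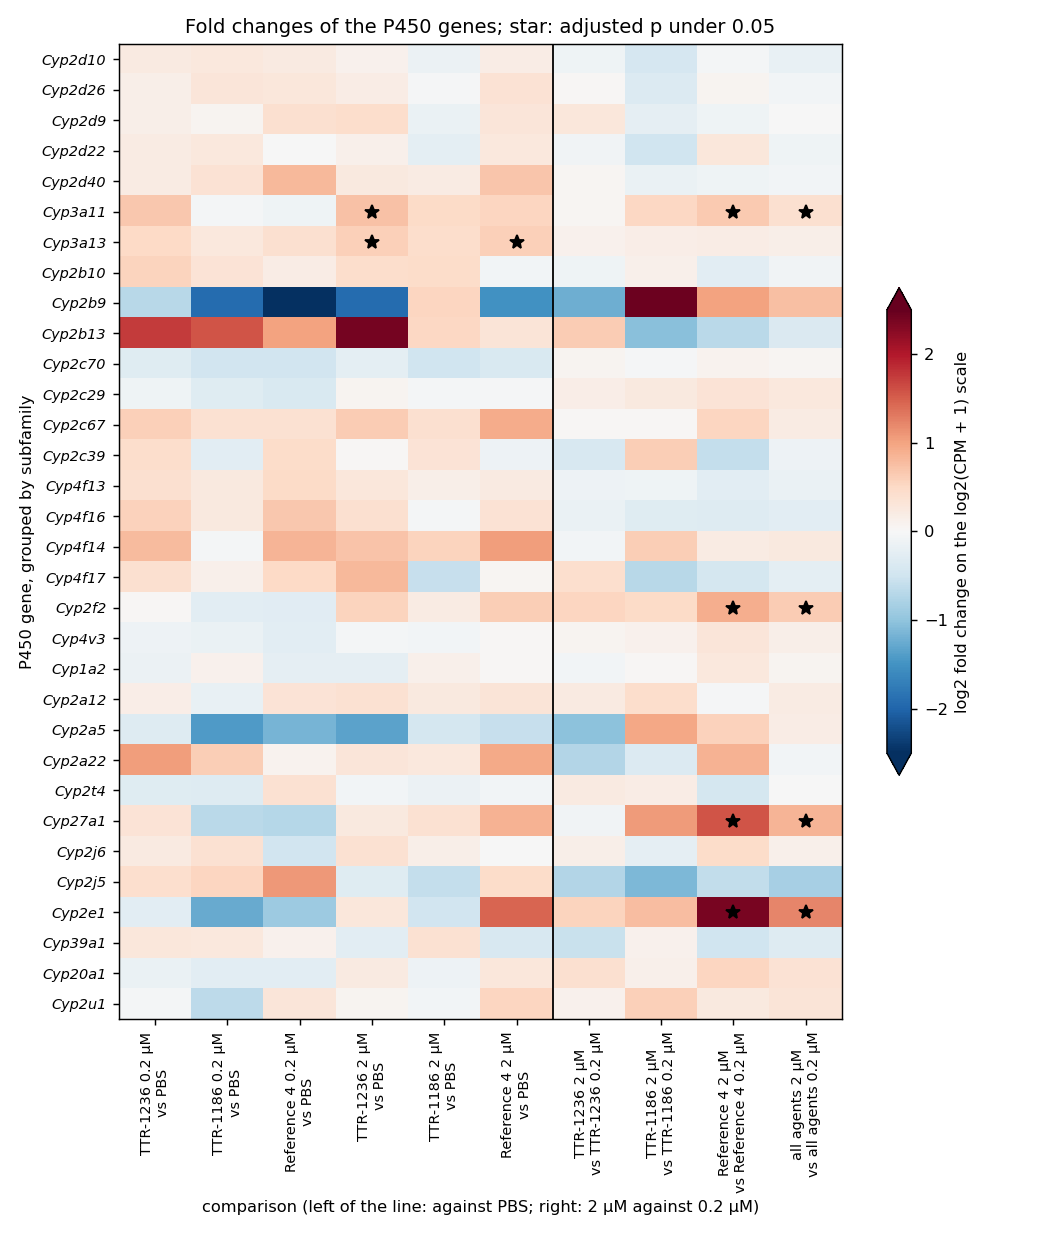
Log2 fold changes of the 32 P450 genes (rows, grouped by subfamily) in the 6 comparisons with PBS and the 4 comparisons of dose (columns), with red for higher and blue for lower in the first named group and a star where the adjusted p is under 0.05. Stars fall in the rows of Cyp3a11, Cyp3a13, Cyp2f2, Cyp27a1 and Cyp2e1, while the deepest colours without a star are those of Cyp2b9 and Cyp2b13.

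Whether the dose difference itself varied with the agent was tested with interaction terms, and 0 of the 9657 genes passed by limma in any of the 3 pairs of agents. Unadjusted, 4 members had a p under 0.05 for Reference 4 against TTR-1236, 1 for Reference 4 against TTR-1186 and 4 for TTR-1236 against TTR-1186 (12.5%, 3.125% and 12.5%). The same shares over all genes were 9.46%, 9.05% and 6.81%. For Cyp27a1 the dose effect of Reference 4 exceeded that of TTR-1236 by 1.67 on the log2 scale (95% interval 0.79 to 2.55, adjusted p = 0.132). The same excess was 1.82 for Cyp2e1 (0.21 to 3.42, adjusted p = 0.456) and 0.59 for Cyp3a11 (0.06 to 1.13, adjusted p = 0.466). That these genes passed under Reference 4 and not under TTR-1236 therefore does not show a difference between the agents.

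The third question is how the agents compared at the same dose. No member passed in any of the 6 comparisons. The share of all genes called was 0% for each pair at 0.2 µM and for TTR-1236 against Reference 4 at 2 µM, at that dose 0.373% for TTR-1186 against Reference 4 and 0.342% for the pair of TTR-1236 and TTR-1186. At 0.2 µM, 5 members had an unadjusted p under 0.05 for TTR-1236 against Reference 4, 3 for TTR-1186 against Reference 4 and 3 for the other pair, beside 14.0%, 4.92% and 7.09% of all genes. At 2 µM these counts were 4, 6 and 4, beside 2.98%, 12.4% and 15.8%. As shares of the 32 members, 3, 4, 5 and 6 are 9.375%, 12.5%, 15.6% and 18.75%. With DESeq2 2 members passed for TTR-1236 against Reference 4 at 0.2 µM (Cyp3a11 and Cyp27a1), and 1 each for TTR-1186 against Reference 4 (Cyp2e1) and TTR-1236 against TTR-1186 (Cyp2d9) at 2 µM, while edgeR called 0 in all 6. The shares of all genes given above are those of limma and are no background for these DESeq2 counts.

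The differences nearest to the threshold by limma lay in the genes described above. At 0.2 µM Cyp3a11 was higher in all 3 TTR-1236 libraries than in any library of Reference 4, by 0.78 (95% interval 0.41 to 1.16, adjusted p = 0.0710), and than in any of TTR-1186, by 0.72 (0.35 to 1.10, adjusted p = 0.558). Cyp27a1 at the same dose was higher with TTR-1236 than with Reference 4 by 1.05 (0.43 to 1.67, adjusted p = 0.102), without overlap. At 2 µM Cyp2e1 was lower with TTR-1186 than with Reference 4 by 1.95 (interval of the difference -3.09 to -0.81, adjusted p = 0.141), also without overlap. Cyp2d9, at 115, 116 and 126 CPM with TTR-1236 and 103, 59.5 and 79.4 CPM with TTR-1186 at 2 µM, differed by 0.59 (adjusted p = 0.103). Missing the threshold is no proof of like action, since the 95% interval of a member's difference between 3 libraries and 3 reached a median of 0.66 to either side on the log2 scale, from 0.28 for the steadiest member to 2.39 for the most variable.

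Genes that work with P450 enzymes were read from lists. Of 10 genes of P450 redox partners 9 were measured. Por was at 141 ± 6.56 CPM in PBS and passed in none of the comparisons, with 0.30 for TTR-1236 at 2 µM against PBS (adjusted p = 0.204) and 0.41 between the doses of Reference 4 (adjusted p = 0.0585). Fdx1, the ferredoxin that feeds electrons to mitochondrial enzymes such as that of Cyp27a1, was the only redox partner that passed. With Reference 4 it was at 36.4, 30.6 and 40.3 CPM at 0.2 µM and at 54.2, 84.3 and 80.1 CPM at 2 µM, without overlap. It rose by 0.99 ± 0.27 (adjusted p = 0.0215), and by 0.46 ± 0.16 over all agents (adjusted p = 0.0426). The median of the list was 0.20 between the doses of Reference 4 and 0.08 over all agents, beside 0.03 and -0.01 for all genes.

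Of 12 genes of haem synthesis and breakdown 11 were measured, and 1 passed. Cpox, an enzyme late in haem synthesis, was at 8.19, 5.68 and 4.65 CPM with Reference 4 at 0.2 µM and at 13.5, 18.1 and 19.9 CPM at 2 µM, without overlap. Its rise was 1.35 ± 0.34 (adjusted p = 0.0132), and 0.83 ± 0.19 over all agents (adjusted p = 0.00582). Alas1, the rate-limiting enzyme of haem synthesis, was at 18.8 ± 11.7 CPM in PBS and passed in no comparison. The list's median was 0.15 between the doses of Reference 4 and 0.12 over all agents.

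Of 36 regulators of P450 genes 26 were measured, and those that passed went in either direction. With TTR-1236 at 2 µM against PBS 0 rose and 3 fell, the nuclear receptor genes Nr5a2 (-1.24 ± 0.32), Nr3c1, the glucocorticoid receptor (-1.49 ± 0.43), and Rora (-0.99 ± 0.27), with adjusted p of 0.0266, 0.0415 and 0.0333. In PBS replicates 1, 2 and 3 Rora was at 132, 126 and 58.6 CPM, Nr3c1 at 23.2, 31.1 and 12.03 CPM and Nr5a2 at 16.1, 23.6 and 16.7 CPM. Rora and Nr3c1 were thus also low in PBS replicate 3, the PBS library lowest in mitochondrial ribosomal RNA, and so they were in TTR-1186 2 µM replicate 2 (52.1 and 3.36 CPM, against 60.5 to 87.9 and 11.98 to 17.97 CPM in replicates 1 and 3). The part of that RNA share in the falls of the regulators was not tested. With Reference 4 at 2 µM against PBS only Hlf, a clock-controlled transcription factor, passed (-1.68 ± 0.44, adjusted p = 0.0465). At that dose it was at 0.691, 1.03 and 0.508 CPM with Reference 4 and at 6.79, 10.8 and 5.19 CPM with TTR-1186, a difference of 2.26 ± 0.44 that passed (adjusted p = 0.0250). It was the only list gene that passed between agents. Between the doses of Reference 4, 2 rose and 3 fell. Hnf4a, a nuclear receptor central to hepatocyte identity, rose by 0.91 ± 0.25 (adjusted p = 0.0198) and Ctnnb1, which encodes beta-catenin, by 0.57 ± 0.16 (adjusted p = 0.0238). Rora (-1.02 ± 0.27), Hlf (-1.52 ± 0.44) and Nr1i2 (-0.81 ± 0.25, adjusted p = 0.0333) fell.

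Nr1i2, the receptor known to drive Cyp3a11, was at 71.7, 76.0 and 59.7 CPM with Reference 4 at 0.2 µM and at 43.6, 35.6 and 38.0 CPM at 2 µM, without overlap. PBS was at 37.6 ± 3.66 CPM, so the low dose stood out and the high dose was near PBS. Cyp3a11 was lower where Nr1i2 was higher within this agent, but not within the others. With TTR-1186 both means were higher at 2 µM, Nr1i2 from 32.5 to 42.8 CPM with overlapping libraries and Cyp3a11 from 181 to 262 CPM. With TTR-1236 both were near level, at 45.0 and 45.6 CPM for Nr1i2 and 302 and 318 CPM for Cyp3a11. A link between the 2 genes was not tested. The difference of Nr1i2 from PBS at the low dose, 0.86, did not pass (adjusted p = 0.120). Nr1i3 (10.7 ± 4.21 CPM in PBS) and Ahr (11.5 ± 2.25 CPM) passed in no comparison. Over all agents Hnf4a (0.47) and Ctnnb1 (0.29) rose and 4 regulators fell, Nr3c1 (-1.05), Rora (-0.67), Nr5a2 (-0.64) and Nfe2l2, the oxidative stress regulator (-0.73). Nfe2l2 was likewise low in PBS replicate 3 (68.8 CPM, against 220.0 and 204 CPM in replicates 1 and 2) and in TTR-1186 2 µM replicate 2 (68.2 CPM, against 126 and 145 CPM). The list's median of -0.02 was close to the -0.01 of all genes.

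Of 54 other drug-metabolising enzymes 36 were measured. Between the doses of Reference 4, 7 rose and 1 fell, but 5 of the rises were of Ugt1a genes, which share their 3′ exons and amount to 1 reading of 97.3 against 57.6 CPM in the case of Ugt1a1. Adh5 (0.79 ± 0.20) and the carboxylesterase Ces1c (0.97 ± 0.31) rose, and the alcohol dehydrogenase Adh1 fell from 521 to 330.2 CPM (-0.65 ± 0.19, adjusted p = 0.0265). The median of the list was 0.36, beside 0.03 for all genes. Over all agents 6 rose, 4 of them Ugt1a genes beside Adh5 (0.40) and Sult1a1 (0.49), and 2 fell, Ces3b (-0.40) and Ugt2b36 (-0.88), with a list median of 0.11.

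P450 genes differ along the liver lobule, with Cyp2e1, Cyp1a2 and most others higher near the central vein and Cyp2f2 near the portal tract, so markers of these zones were set beside them. Of 14 central zone markers that are not P450 genes 10 were measured, and 0 passed with either dose comparison, with medians of -0.12 for Reference 4 and 0.08 over all agents. Of 14 portal zone markers 12 were measured. With Reference 4, 3 rose, the urea cycle gene Cps1 (1.27 ± 0.40), Alb (0.80 ± 0.14) and Igf1 (0.88 ± 0.18), and the median was 0.42. Alb is also among the hepatocyte markers summed above, so its rise is not a separate observation. Between the doses of TTR-1236 and of TTR-1186 0 portal markers passed, with medians of 0.06 and 0.04. Over all agents Gls2 (0.47), Alb (0.39) and Igf1 (0.45) rose, with a median of 0.15. Among the P450 genes that rose with dose are thus a portal one (Cyp2f2) and a central one (Cyp2e1), and Cyp1a2, at 52.5 ± 11.0 and 62.5 ± 5.66 CPM at the 2 doses of Reference 4, did not pass.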

How the data were processed

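The authors deposited 1 table per library with CPM values of 9657 genes, which sum to 1000000 in each. The submitters' processing notes name cutadapt 1.15, HISAT2 2.1.0, featureCounts and build mm10. Not given in the sources used here are their settings, the strand, the annotation release and any filter on low genes. All values matched whole read numbers to within 0.001 reads, which returned counts and totals. The step of 1 read was visible in the low values alone in only 2 of the 21 libraries, since the other 19 list too few genes that low. Read numbers in those 19 rest on the match of all values to 1 total.

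Gene identifiers were matched to GENCODE symbols (9651 of 9657). The members and lists were chosen with earlier results of these data known. The main test was limma 3.58.1 in R 4.3.3 on log2(CPM + 1), with 7 group means over 21 libraries, a trended and robust variance prior, no further filter and Benjamini-Hochberg adjustment over all genes (threshold 0.05), in 16 comparisons and 3 interactions. It was also run on simulated reads with known changes and the same setting of spread in every gene and library. Such reads hold no outlying library, so that run does not speak for the uneven libraries here.

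Members are named where they passed in a comparison, led their subfamily or were among the 10 highest. Up to 4 list genes that passed are named per list and comparison, with Por, Alas1, Nr1i2, Nr1i3 and Ahr always. Cyp2b9, Cyp2b13, Cyp2a5 and, in the closing part, Cyp2j5 were picked after their values were seen.

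Alternatives on the recovered reads were edgeR 4.0.16 and DESeq2 1.42.0. Others were TMM-rescaled CPM, a pseudocount of 0.5 or 5, a mean of at least 10 CPM, a fit of the compared libraries only, a block for the replicate number, and each library left out. Chosen after seeing the data were fits without PBS replicate 3 and TTR-1186 2 µM replicate 2, and with the mitochondrial ribosomal RNA share as covariate. Copies were searched with blastn 2.17.0. The closest replicate pair differed by a chi-square of 25.1 per degree of freedom, beyond sampling noise. The largest values, 184 and 176, were those of PBS replicate 3 against replicates 1 and 2, which differed by 40.1 from each other. Every comparison with PBS includes that library. TTR-1186 2 µM replicate 2 differed by 135 and 131 from replicates 1 and 3, which differed by 49.6.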

Additional observations from a re-analysis of the deposited data

How the results depend on the processing

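Of the 154 settings other than leaving out a library, 134 gave a count of P450 calls within 1.5 times the reported one. Of 108 fits that left out 1 library, 95 did so. Most comparisons had 0 members called, and 0 again counted as within that range, so these totals do not show that the calls held. In neither comparison with PBS that had calls did a fit that left out 1 library stay within that range. None of the 11 named calls reversed. For TTR-1236 at 2 µM against PBS (2 members) the count was 4 with edgeR, with DESeq2 and with TMM-rescaled CPM, 0 on only the libraries compared, 0 with the mitochondrial ribosomal RNA share as covariate, 5 without the libraries lowest in that RNA within PBS and within TTR-1186 at 2 µM, and 0 to 4 when 1 library was left out. For Reference 4 at 2 µM against PBS (1 member) it was 2 with edgeR and with TMM-rescaled CPM, 4 with DESeq2, 0 with a pseudocount of 0.5, on only the libraries compared and with the covariate, and 0 to 0 when 1 library was left out. For TTR-1236 against Reference 4 at 0.2 µM (0 members) it was 2 with DESeq2 and on only the libraries compared, and 1 with the covariate. For TTR-1186 against Reference 4 at 2 µM (0) it was 1 with DESeq2 and with the covariate. At 2 µM TTR-1236 set against TTR-1186 (0) gave 1 member with DESeq2 and on only the libraries compared, and 0 to 1 when 1 library was left out. Between the doses of Reference 4 (4) the count was 3 with the covariate (without Cyp3a11) and 3 to 4 when 1 library was left out, and over all agents (4) it was 1 with the covariate and 4 to 5 when 1 library was left out. The cause of these changes was not tested, except that the fits on fewer libraries have fewer samples. The numbers of all genes called in the same fits are not set beside these member counts. Changes of the P450 genes and of all genes are therefore not told apart here. Numbers shared by replicates did not pair them, since the deviations of 63 same-numbered pairs had a median correlation of 0.018, 18 were over 0.1 and 7 of 21 libraries correlated best with their own number; with the replicate number as a block all 16 counts stayed within 1.5 times. TMM or DESeq2 scaling moved the median of all genes by less than 0.1 (log2).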

Other observations

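Cyp2j5, an arachidonic acid epoxygenase gene, had no read in TTR-1186 2 µM replicate 2, where 3 reads would be 0.135 CPM. Replicates 1 and 3 of that group were at 10.2 and 14.4 CPM. In replicate 2 as a whole 109 genes had no read, against 1 and 0 in replicates 1 and 3. The next highest library, TTR-1236 2 µM replicate 3, had 29 such genes, so the absence of reads was not particular to Cyp2j5. The libraries of Reference 4 at 0.2 µM held 24.5, 22.3 and 8.23 CPM, and those of PBS 6.49, 7.90 and 7.78 CPM. Its SD within groups was 0.90 on the log2 scale, rank 184 of 9657 genes, and it passed in no comparison.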
